A study of Mus musculus with 6 samples.

Results

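The genes described here carry glucose into the cell and through glycolysis, export lactate, or run the reverse, gluconeogenic steps. They were taken by name from the deposited gene table, which held a row for each of the 35 genes among 34745 in all. RNA was sequenced from MLE-12 cells, an immortalized mouse lung epithelial line, in 2 groups of 3 libraries. The NR4A1 overexpression group received the open reading frame of NR4A1 in the plasmid pCMV-SPORT6, and the control group received the same plasmid without the insert. Lipofectamine 2000 was used for both groups, so every library comes from transfected cells. The plasmid was delivered by transfection and not by a stable line, each library pools all cells of a culture whether or not they took up plasmid, and the time between transfection and RNA extraction for sequencing is not given in the sources used here. The question put to these genes was whether their mRNA differed between NR4A1 overexpression and control.

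Glucose enters through carriers of the SLC2A family, is phosphorylated by hexokinases, and is split and oxidized in a chain of enzymes that ends with enolase and pyruvate kinase. Pyruvate is then reduced to lactate by lactate dehydrogenase and leaves through monocarboxylate carriers, or enters the mitochondria under the control of pyruvate dehydrogenase kinases. Most steps have several isozymes with their own tissue pattern: Eno1 is found in most cells, Eno2 in neurons and Eno3 in muscle. NR4A1 is an orphan nuclear receptor of the NR4A family that binds as a monomer to the NBRE, the hexamer AGGTCA with 2 further A bases before it, and members of the family are known as regulators of glucose metabolism in liver and muscle.

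The transfected gene checked the labels. Nr4a1 had counts of 50660, 60093 and 68555 with the insert and of 428, 510 and 463 with the empty plasmid, and reads of the plasmid and of the cells' own gene were not told apart. Total counts per library lay between 15019038 and 17574340. NR4A1 overexpression replicate 2 stood apart from the rest on the first principal component, with a score of 57.4 against -20.8 to 2.24. The labelled cell type was checked on 10 lung epithelial markers: Sftpc, Sftpb, Nkx2-1, Abca3, Cdh1 and Krt8 were counted in every library, Sftpa1 was at 0 in all, Sftpd had 2 counts in 1 library, Epcam had 2 to 22 counts, and Krt18 had 164 in NR4A1 overexpression replicate 2 and 2 to 21 elsewhere. The summed level of these markers was 484 to 526 CPM (counts scaled to library size, with TMM normalization) in the NR4A1 overexpression group and 539 to 561 in the control group, and its part in the results below was not tested. Of the 7 markers with enough counts for edgeR's quasi-likelihood test, 2 were lower at an unadjusted p under 0.05 and 0 were higher. The 2 are 28.6% of those tested, against 2.44% of all tested genes.

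The stretch of 250 bases before the transcription start is printed for 3 of the genes, because Eno3 was the member past the threshold, Hk2 came next by p-value, and Eno1 holds the only full NBRE found before a start site of the enolases. Sequence and positions are those of RefSeq on GRCm38.p6, read 5′ to 3′ on the strand of the gene. Capitals mark AGGTCA, and ACGTG or GCGTG (the core of the hypoxia response element), each on either strand.
Eno3, chr11:70656926-70657175, plus strand: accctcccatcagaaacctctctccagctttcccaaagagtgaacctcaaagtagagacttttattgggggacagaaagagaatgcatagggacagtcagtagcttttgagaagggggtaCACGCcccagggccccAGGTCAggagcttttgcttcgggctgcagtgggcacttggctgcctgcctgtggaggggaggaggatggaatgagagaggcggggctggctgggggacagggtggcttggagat
Hk2, chr6:82774455-82774704, minus strand: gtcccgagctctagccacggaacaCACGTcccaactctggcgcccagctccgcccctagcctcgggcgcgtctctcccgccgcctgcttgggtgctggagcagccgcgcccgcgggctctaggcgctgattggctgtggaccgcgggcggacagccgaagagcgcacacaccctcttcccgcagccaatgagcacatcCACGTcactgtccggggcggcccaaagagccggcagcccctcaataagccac
Eno1, chr4:150236458-150236707, plus strand: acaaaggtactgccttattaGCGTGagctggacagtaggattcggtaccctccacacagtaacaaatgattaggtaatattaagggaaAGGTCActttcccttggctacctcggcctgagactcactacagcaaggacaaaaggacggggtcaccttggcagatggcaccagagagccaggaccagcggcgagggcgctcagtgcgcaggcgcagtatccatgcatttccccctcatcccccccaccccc

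In the Eno3 stretch, AGGTCA began 114 bases before the start and the reverse complement of GCGTG began 130 bases before it, and the full NBRE letters AAAGGTCA were not found. In the Eno1 stretch the full NBRE began 164 bases before the start. Eno1 has further RefSeq starts downstream of that one, and the stretches before them (chr4:150236947-150237196 and chr4:150236974-150237223) held no AGGTCA. Counted in 300-base windows that run from 250 bases before to 50 bases after a start, the NBRE was in 2 of the 51 windows of the 33 genes with a RefSeq entry (3.92%, Eno1 and Pfkfb1) and in 1.51% of all 32851 mouse windows. The shorter AGGTCA, which is part of the NBRE and is counted with it, was in 17.65% of the windows of these genes and in 16.26% of all windows. The hypoxia core was in 72.55% of the windows of these genes, against 43.77% of all. The E-box CACGTG, which contains the hypoxia core, was in 13.73% against 7.15%. The median GC content before the start was 56.4% in the windows of these genes and 52.4% in all. These matches describe the letters only.

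In the control group the most abundant mRNA of the pathway per length was Pkm, which encodes the pyruvate kinase M isozymes, with 900 ± 52.9 FPKM (SD, n = 3). Tpi1 (triose phosphate isomerase), Pgk1 (phosphoglycerate kinase), Pgam1 (phosphoglycerate mutase) and Ldha (lactate dehydrogenase A) followed with 410 ± 20.6, 356 ± 32.9, 329 ± 12.7 and 292 ± 25.3 FPKM. The ranges of the libraries of neighbouring genes overlapped from Tpi1 to Pgk1, from Pgk1 to Pgam1, and from Pgam1 to Ldha, so their order is not fixed beyond the spread. The gene length behind the FPKM was not of 1 kind when set against the GENCODE M21 annotation, which may not be the one the authors used. For 21 of the 33 members with a value it matched, within 1 base, the sum of all distinct exons, in which overlapping exons of different transcripts count repeatedly. For the other 12 it did not, and for 7 it was shorter than the merged exons. Pkm was one of these 7, with 2599 bases behind its FPKM against 5001 bases of merged exons, which bears on its first place. Per kilobase of merged exons the first place went to Tpi1, with 584 CPM per kilobase, ahead of Pgk1 with 481 and Pkm with 465. The same 5 genes led on both scales.

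Below them stood Aldoa (aldolase A, 133 ± 3.12 FPKM), Gpi1 (glucose phosphate isomerase, 68.5 ± 2.75) and Slc16a1, the monocarboxylate carrier MCT1, at 56.7 ± 0.828. At the other end 8 genes had too few counts for a test. Pgam2, the muscle phosphoglycerate mutase, and Pck1, the cytosolic phosphoenolpyruvate carboxykinase, were at 0 counts in all 6 libraries, which allows up to 3 counts or 0.2 CPM per library. Hk3 had 3 counts and Fbp1, the liver fructose bisphosphatase, 2 counts, each in vector control replicate 1 only. The glucose carriers of neurons and of muscle and fat had few counts too: Slc2a3, not tested, had 5 to 22 and Slc2a4, which was tested, 6 to 19. Some enzyme forms named for muscle or brain were well above these levels in control cells, namely Pfkm with 51.1, Aldoc with 18.6 and Eno3 with 18.4 FPKM.

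**Figure D1:**
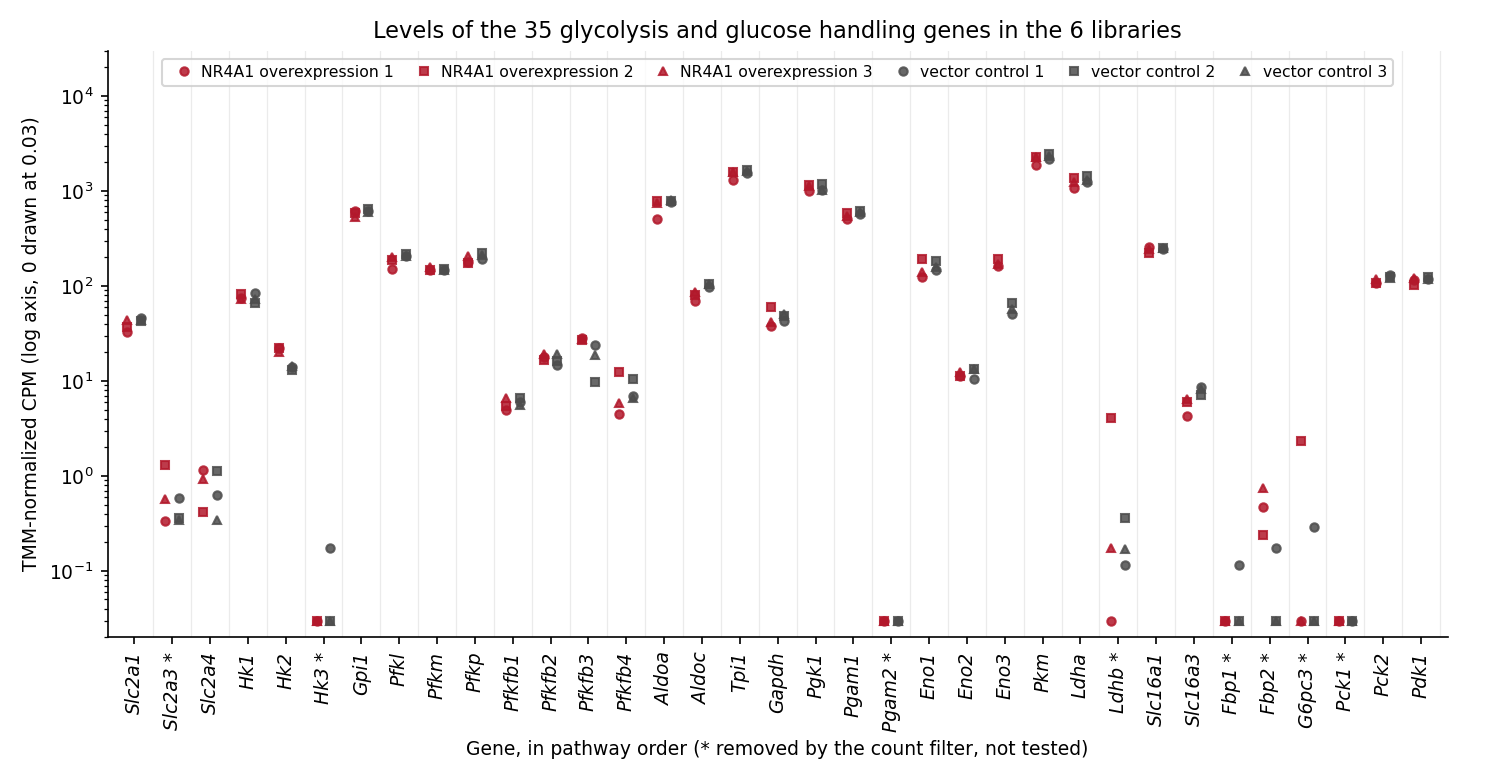
TMM-normalized CPM on a log axis for the 35 genes in pathway order, with 1 point per library (red, NR4A1 overexpression; grey, vector control; circle, square and triangle, replicates 1, 2 and 3), where libraries at 0 counts are drawn near the lower edge. The groups lie on each other for most genes, the points of Eno3 are separate, and Ldhb and G6pc3 have 1 high point each, in NR4A1 overexpression replicate 2.

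Of the 35 genes, 27 passed the filter on low counts and were tested. With edgeR's quasi-likelihood test, 1 rose at least 2-fold with an adjusted p under 0.05, Eno3 (3.7% of those tested), where 0.17% of all 12941 tested genes did so. By the same rule 0 fell, and 0.0% of all tested genes did. Earlier results of these data had already shown Eno3 past the threshold when the genes were chosen. The 3.7% against 0.17% is therefore a description and not a test of the set. At an unadjusted p under 0.05, 3 of the 27 were higher (Hk2, Pfkfb3 and Eno3, 11.1%, against 4.02% of all tested genes) and 2 were lower (Aldoc and Slc16a3, 7.41%, against 2.44%). The same 1 higher and 0 lower came from DESeq2, limma-voom and the exact test of edgeR at 2-fold. The groups did not overlap for 3 higher members (Hk2, Pfkfb3 and Eno3, 11.1%, against 6.69%) and 4 lower ones (Pfkl, Aldoc, Slc16a3 and Pck2, 14.8%, against 6.22%). The log2 fold change was within 0.25 of 0 for 22 of the 27 (81.5%, against 80.4% of all tested genes). In bulk RNA, a change in the number of cells and a change in RNA per cell cannot be told apart.

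**Figure D2:**
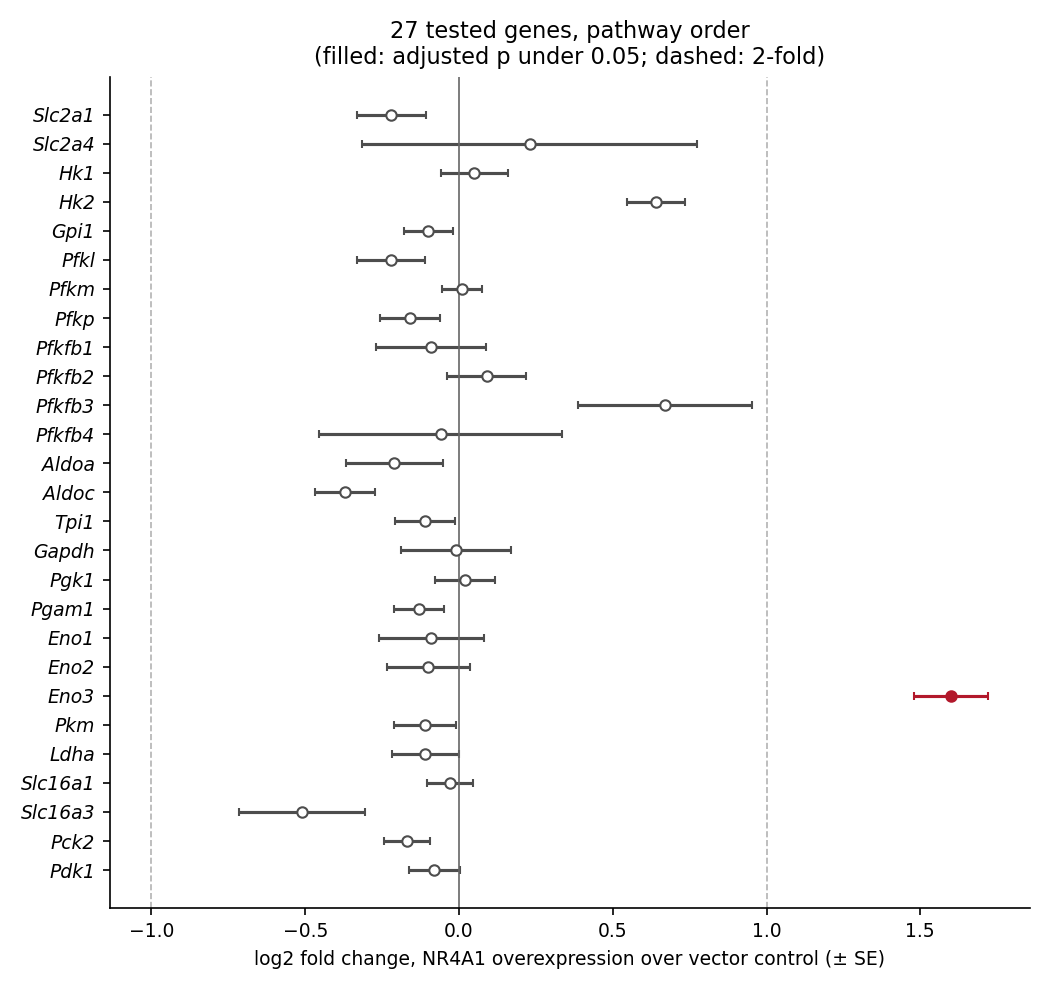
The log2 fold change of each of the 27 tested genes (NR4A1 overexpression over vector control) with its standard error, in pathway order. Eno3 at 1.60 is the only filled point (adjusted p under 0.05), and the dashed lines mark a 2-fold change.

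Eno3 encodes beta-enolase, the muscle form of the enzyme that makes phosphoenolpyruvate. Its counts were 2412, 3199 and 2932 in replicates 1, 2 and 3 with NR4A1 overexpression and 865, 1106 and 1000 in the controls. Each NR4A1 overexpression library held more than 2 times the count of any control library. Eno3 thus rose from 57.6 ± 8.01 to 174 ± 14.4 CPM (SD, n = 3 each), or from 18.4 ± 2.64 to 55.0 ± 4.63 FPKM. Its log2 fold change was 1.60 (SE 0.120, adjusted p = 0.00836 with edgeR's quasi-likelihood test), 3.03-fold, and Eno3 ranked 4 by p among all tested genes. The size did not depend on 1 library, being 1.51 to 1.71 with each left out in turn. The call did: the adjusted p was 0.0511 without NR4A1 overexpression replicate 1, 0.110 without replicate 3 and 0.0845 without vector control replicate 3. Eno3 shared none of its 50-base stretches with another annotated gene.

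The Eno3 gene (ENSMUSG00000060600) runs from 70657202 to 70662513 on the plus strand of chromosome 11 (GRCm38), between Gm12319 and Spag7. Of the 8 genes of the table within 30000 bases of it, 6 were tested, and their log2 fold changes lay between -0.16 for Slc25a11 and 0.16 for Inca1. Pfn1 (profilin) and Spag7, the nearest tested genes on either side, had 0.06 and -0.05. None of these 6 had an unadjusted p under 0.05 with edgeR's quasi-likelihood test, the smallest being 0.118. Markers of skeletal muscle did not accompany Eno3: of 14, 8 were at 0 in every library, among them Myod1, Myog, Ckm, Myh1, Myh2 and Myh4, and the summed level of the 14 was 5.37 to 7.03 CPM in the NR4A1 overexpression group and 6.31 to 8.29 CPM in the control group.

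The other enolases were counted at about the same level in both groups. Eno1, alpha-enolase, had 15.5, 24.5 and 17.9 FPKM with NR4A1 overexpression and 18.9, 23.4 and 20.4 in the controls (log2 fold change -0.09, SE 0.171). Eno2, the neuronal form, had 0.859 to 0.954 FPKM against 0.830 to 1.05. The groups overlapped for both. In the control group Eno3 held 44.7%, 46.5% and 45.7% of the summed FPKM of the 3 enolases, and in the NR4A1 overexpression group 75.8%, 70.3% and 74.0%. The share of Eno1 was 51.9 ± 0.890% in the control group and 25.4 ± 2.92% in the NR4A1 overexpression group (SD, n = 3). The share of Eno3 was 27.7 percentage points higher with NR4A1 overexpression (exact permutation test over the libraries, two-sided, p = 0.1, the smallest that 3 against 3 allow; 0.244 after Benjamini-Hochberg adjustment over 22 isozyme shares). The summed FPKM of Eno1, Eno2 and Eno3 was 67.5 to 85.5 against 35.7 to 45.7. This sum leaves out the reads assigned to Eno1b, a copy of Eno1 described next. The ratio between the groups depends on that choice, and the sum was not taken with Eno1b.

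The count of Eno1 is uncertain, since 26% of its 50-base stretches occur in other annotated genes, most of them in the intronless copy Eno1b. Eno1b was counted 3589, 5325 and 5392 times with NR4A1 overexpression and 4744, 6140 and 5734 times in the controls, more often than Eno1 itself. With the counts of both added together, a setting chosen after seeing the data, the share of Eno3 was 22.6% in the control group and 49.4% in the NR4A1 overexpression group. The level of the general enolase relative to the muscle form moved with that choice, and the difference in the share of Eno3 was then 26.75 percentage points.

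**Figure D3:**
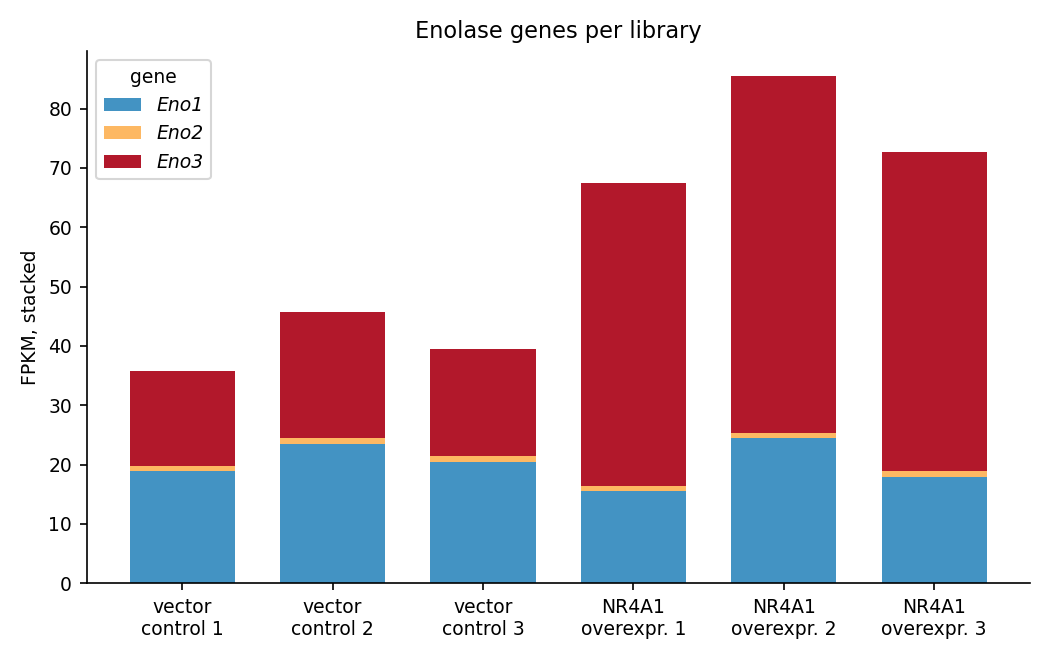
FPKM of Eno1, Eno2 and Eno3 stacked for each of the 6 libraries. The red part, Eno3, is 16.0 to 21.2 FPKM in the vector controls and 51.1 to 60.1 FPKM with NR4A1 overexpression, while the blue part, Eno1, overlaps between the groups.

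Hexokinases commit glucose to the cell by phosphorylation. Hk2, the inducible form of muscle, fat and tumour cells, was counted 327, 376 and 347 times with NR4A1 overexpression and 242, 221 and 250 times in the controls. All 3 NR4A1 overexpression libraries were above all 3 controls, at 21.5 ± 1.28 against 13.8 ± 0.523 CPM (SD, n = 3 each). The log2 fold change was 0.64 (SE 0.0946), 1.56-fold, and Hk2 did not pass (edgeR's quasi-likelihood test, unadjusted p = 0.000231, adjusted p = 0.0696). Without a fold threshold 2 of the 4 tools run called Hk2, DESeq2 with an adjusted p of 0.00156 and edgeR's exact test with 0.0114, while limma-voom gave 0.0778. With each library left out the log2 fold change was 0.61 to 0.68 and the adjusted p 0.124 to 0.278.

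Hk1, the general hexokinase, had 77.2 ± 4.45 against 74.5 ± 8.85 CPM and a log2 fold change of 0.05 (SE 0.108). Hk2 made up 34.6%, 33.0% and 32.9% of the summed hexokinase FPKM with NR4A1 overexpression and 23.1% to 26.4% in the controls, with Hk1 holding nearly all of the rest. These shares did not overlap, with a difference of 8.36 percentage points (exact permutation test, two-sided, p = 0.1, adjusted 0.244). Hk2 overlaps the opposite-strand gene Gm17034, and whether the counting used strand is not given in the sources used here. Opposite-strand genes also overlap Hk1, Slc2a1, Pfkfb3, Pck2, Aldoa, Tpi1 and Gapdh, among other members. On the uptake side, Slc2a1 (GLUT1) was the main carrier at 37.8 ± 5.36 against 44.1 ± 1.59 CPM, with overlapping groups and a log2 fold change of -0.22 (SE 0.113, unadjusted p = 0.0911 from the same test with edgeR).

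Phosphofructokinase is the main point of control of glycolysis, and the PFKFB enzymes make and remove its activator fructose 2,6-bisphosphate. Pfkfb3, the form with the strongest kinase activity, was counted 415, 459 and 481 times with NR4A1 overexpression and 410, 162 and 330 times in the controls. The 3 NR4A1 overexpression libraries lay within 27.3 to 28.1 CPM and the controls between 9.67 and 23.7 CPM, so the groups did not overlap but the spread was in the controls. Its log2 fold change of 0.67 (SE 0.284) had an unadjusted p of 0.0486 and an adjusted p of 0.767 (edgeR's quasi-likelihood test), and it was 0.39 to 0.97 with each library left out. Pfkfb1, Pfkfb2 and Pfkfb4 had log2 fold changes of -0.09, 0.09 and -0.06. Pfkfb4 varied between libraries of the same group, with 66, 210 and 101 counts against 119, 174 and 117, and its sign turned with 3 of the libraries left out.

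The catalytic phosphofructokinases were near their control levels. Pfkl, the liver form, had 150, 187 and 200 CPM with NR4A1 overexpression and 205, 215 and 205 in the controls, so its groups did not overlap, at a log2 fold change of -0.22 (SE 0.111). Pfkm, the muscle form, had 151 ± 6.23 against 150 ± 1.85 CPM, the smallest difference of the 27 genes together with Gapdh. Pfkp, the platelet form, had a log2 fold change of -0.16 (SE 0.0980). Of their summed FPKM, Pfkm held 49.4 ± 2.11% and 45.7 ± 0.701%, and Pfkl 35.4 ± 2.60% and 38.4 ± 0.380%, in the NR4A1 overexpression and control groups.

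Aldolases split the 6-carbon sugar. Aldoc, the form of brain, was counted 1036, 1350 and 1498 times with NR4A1 overexpression and 1672, 1768 and 1852 times in the controls. All 3 NR4A1 overexpression libraries were below the controls, at 79.0 ± 8.34 against 102 ± 4.88 CPM. The log2 fold change was -0.37 (SE 0.0984, unadjusted p = 0.00645, adjusted p = 0.414 with edgeR's quasi-likelihood test) and stayed between -0.45 and -0.29 with each library left out. Aldoa, with 677 ± 149 against 780 ± 17.8 CPM, had a log2 fold change of -0.21 (SE 0.159) and a low value of 505 CPM in NR4A1 overexpression replicate 1. The share of Aldoc in the summed aldolase FPKM was 9.93% to 12.9% with NR4A1 overexpression and 11.9% to 12.6% in the controls, and these ranges overlapped.

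At the far end of the pathway, Slc16a3, the carrier MCT4 that exports lactate, was counted 63, 100 and 112 times with NR4A1 overexpression and 150, 118 and 144 times in the controls. The groups did not overlap, at 5.56 ± 1.16 against 7.96 ± 0.838 CPM, and the log2 fold change was -0.51 (SE 0.204, unadjusted p = 0.0390, adjusted p = 0.735 with edgeR's quasi-likelihood test). Slc16a1, the other carrier, held 98.2% to 99.2% of their summed FPKM in every library and had a log2 fold change of -0.03 (SE 0.0752). Pck2, the mitochondrial phosphoenolpyruvate carboxykinase, had 107, 108 and 119 CPM against 131, 123 and 122. Its groups did not overlap either, with a log2 fold change of -0.17 (SE 0.0751) and an unadjusted p of 0.0582 from edgeR's test. Pdk1, which phosphorylates pyruvate dehydrogenase, had -0.08 (SE 0.0831) with overlapping groups.

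**Figure D4:**
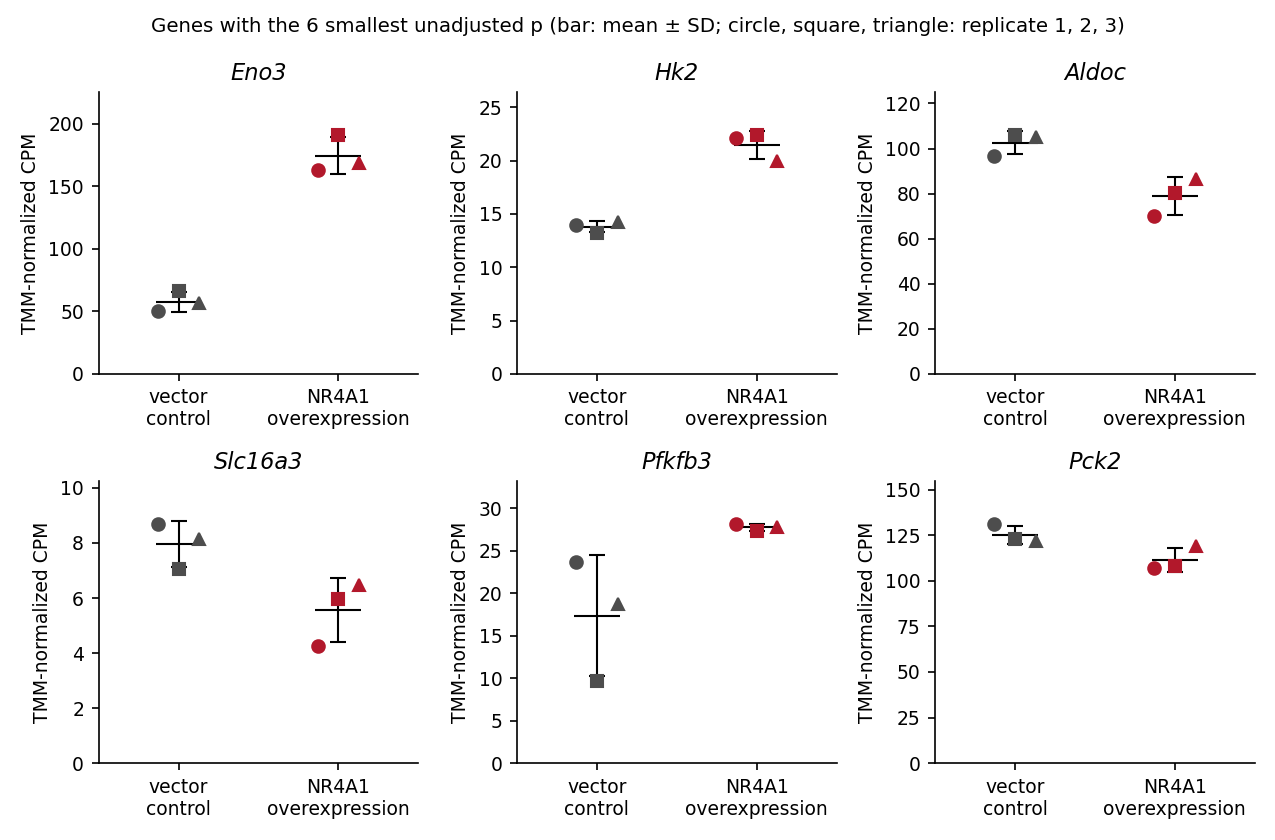
TMM-normalized CPM per library for the 6 members with the smallest unadjusted p, with the mean and SD of each group (n = 3). The 2 groups do not overlap in any of the 6 panels, which follows in part from choosing the genes by p. Eno3 is the panel with the largest gap, 174 against 57.6 CPM.

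The abundant enzymes differed little between the groups. Pkm had 1900, 2290 and 2270 CPM with NR4A1 overexpression and 2180, 2430 and 2360 in the controls. Tpi1 had 1310, 1580 and 1570 against 1530, 1680 and 1610, and Ldha 1080, 1360 and 1250 against 1230, 1450 and 1310. Replicate 1 with NR4A1 overexpression was the lowest of the 6 libraries in each of these. Pgk1 had 1000, 1160 and 1130 against 1020, 1190 and 1030 CPM, and Pgam1 508, 587 and 548 against 578, 619 and 596. The log2 fold changes of the 5 genes lay between -0.13 for Pgam1 and 0.02 for Pgk1, each with overlapping groups. Their nominal 95% intervals, from the SE with a normal distribution assumed, all lay between -0.33, for Ldha, and 0.21, for Pgk1. With 3 libraries per group such intervals are somewhat too narrow.

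The low values in NR4A1 overexpression replicate 1 went through the pathway. It was the lowest of the 6 libraries for 16 of the 27 tested genes (59.3%), against 26% of all tested genes, and for 8 of the 10 members with the highest FPKM. The 35 genes took 0.836% of the counts in that library and 0.955% to 1.06% in the other 5. Among the lists of neighbouring pathways, the library was also lowest for 11 of 17 tested TCA cycle genes (64.7%), but for 2 of 14 genes of pyruvate entry (14.3%) and 2 of 20 regulators. The median log2 fold change of the 27 genes was -0.09, against 0.008 over all tested genes, and 19 of them (70.4%, against 48.1%) were negative. Without that library the median was -0.03 and 17 of 27 (63.0%, against 49.3%) were negative.

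**Figure D5:**
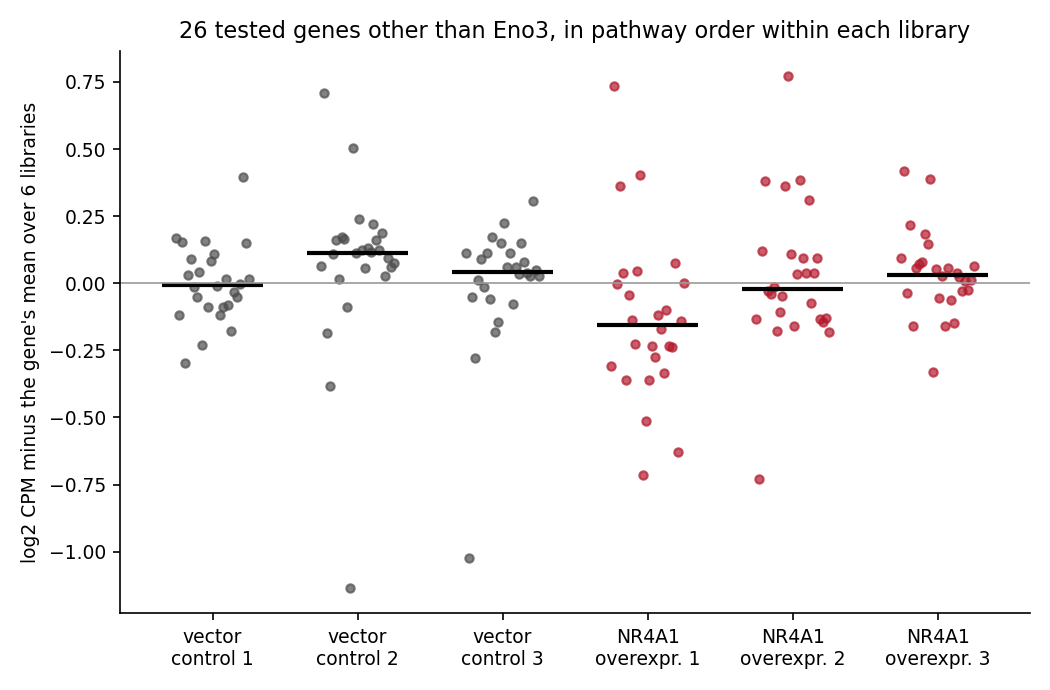
For the 26 tested genes other than Eno3, log2 CPM minus the mean of the gene over the 6 libraries, with 1 point per gene and the median as a bar. The median is -0.16 in NR4A1 overexpression replicate 1, where 19 of 26 genes lie below their mean, and between -0.02 and 0.11 in the other 5 libraries.

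Gapdh, often used as a reference gene, had a low count for an enzyme of this pathway. It was counted 566, 1015 and 718 times with NR4A1 overexpression and 737, 809 and 887 times in the controls, which puts it at 5.49 ± 0.468 FPKM in the control group, rank 19 of the 35. The enzyme before it in the pathway, Tpi1, had 410 ± 20.6 FPKM. Of the 50-base stretches of Gapdh, 24.7% also occur in other annotated genes, 218 in all. Pgk1, Pgam1 and Pkm share 53.9%, 36.2% and 25.8% of their stretches as well, and are among the most abundant members, and how reads that fit several genes were counted is not given in the sources used here. The level of each of these genes relative to the others is therefore uncertain. Within Gapdh the groups did not differ beyond the spread (log2 fold change -0.01, SE 0.178).

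Among the 8 genes under the filter, Ldhb and G6pc3 had counts almost only in NR4A1 overexpression replicate 2. Ldhb, lactate dehydrogenase B, was counted 0, 69 and 3 times against 2, 6 and 3, and G6pc3, the general glucose 6-phosphatase, 0, 39 and 0 times against 5, 0 and 0. Without that library Ldhb had 3 counts and G6pc3 0 counts in the NR4A1 overexpression group. The same library was at least 7-fold above all others for 429 genes of the table at 1 CPM or more, where NR4A1 overexpression replicate 1 was so for 0, and smooth muscle markers summed to 97.0 CPM in it against 0.963 to 2.08 CPM in the rest. Endothelial markers summed to 88.5 CPM in it against 6.85 to 7.77, and fibroblast markers to 1530 CPM against 918 to 1040. Their part in the Ldhb and G6pc3 counts was not tested. Fbp2, the muscle fructose bisphosphatase, had 7, 4 and 13 counts against 3, 0 and 0, a ratio of summed counts of 8.34 (95% interval 2.53 to 43.3 for counting error only).

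In 7 lists of genes around glycolysis and 1 of gene copies, 1 gene passed the threshold, Car12. Of 26 other genes of glucose handling, 10 were tested, 0 passed in either direction and 3 were higher at an unadjusted p under 0.05 (Tigar, Bpgm and the fructose carrier Slc2a5), which is 30% of those tested against 4.02% of all tested genes. Of these, Tigar, a fructose 2,6-bisphosphatase, had 40.8, 38.4 and 38.9 CPM against 27.5, 26.9 and 33.6 (log2 fold change 0.42, SE 0.105, adjusted p = 0.353 with edgeR's quasi-likelihood test). Bpgm, which makes 2,3-bisphosphoglycerate, had 161 ± 0.651 against 135 ± 14.5 CPM. Of 14 genes of pyruvate entry, all tested, 0 passed and 3 had an unadjusted p under 0.05: Pdha1, a subunit of pyruvate dehydrogenase, at 0.16 on the log2 scale, Pdk4 at 0.21 and Pdk2 at -0.22, the last 2 being kinases that inactivate that enzyme. The 2 higher genes were 14.3% of the list, against 4.02% of all tested genes, and the 1 lower gene was 7.14%, against 2.44%.

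Of 17 TCA cycle genes and 10 pentose phosphate genes 0 passed with edgeR's quasi-likelihood test, and 0 had an unadjusted p under 0.05. The smallest p of the TCA list belonged to citrate synthase Cs and to Suclg2, a succinate-CoA ligase subunit, with log2 fold changes of 0.13 and 0.12. Those of the pentose phosphate list belonged to Rpia, a ribose phosphate isomerase, and the transketolase Tkt, with -0.15 and -0.09. Of 15 tested glycogen genes 0 passed, and the kinase subunits Phkb and Phka2, at 0.29 and -0.25, were those under an unadjusted 0.05, each 6.67% of the list, against 4.02% of all tested genes higher and 2.44% lower. Among 17 tested targets of the hypoxia factor HIF-1 outside glycolysis, 1 rose, Car12, a carbonic anhydrase (5.88% of the list, against 0.17% of all tested genes). Car12 had 137, 229 and 191 counts against 60, 60 and 46, and its log2 fold change of 1.81 (SE 0.217) had an adjusted p of 0.0428 with edgeR's quasi-likelihood test, which was 0.0331 to 0.229 with each library left out. In the same list Ddit4, an inhibitor of mTORC1, had a log2 fold change of -0.23 (unadjusted p = 0.0338 from edgeR's test). It was the 1 lower gene under an unadjusted 0.05 (5.88% of the list, against 2.44% of all tested genes). The median log2 fold change of the list was -0.07, against 0.008 over all tested genes. In the list 12 of 17 genes were negative, where 48.1% of all tested genes were. Of 20 tested regulators of the pathway 0 passed, and Hif1a itself had 131 ± 15.4 against 125 ± 4.33 CPM. Foxo1, a transcription factor of gluconeogenesis, was at 25.3 ± 0.406 against 21.8 ± 0.0499 CPM. Its log2 fold change was 0.21, with an unadjusted p of 0.0225 from edgeR's test. Foxo1 was the 1 gene of that list under 0.05 (5.0%, near the 4.02% of all tested genes that were higher). Tfam, a factor of mitochondrial DNA, had -0.22. Of 8 retrocopies and paralogs of the enzymes, Eno1b and Pgk1-rs7 were tested, with log2 fold changes of -0.15 (SE 0.142) and 0.02 (SE 0.264), and 0 passed.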

How the data were processed

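Total RNA of 3 NR4A1 overexpression and 3 vector control libraries was sequenced from strand-specific libraries. The authors deposited 1 table with read counts per gene and library and FPKM values per gene and library. The submitters' processing notes name HISAT2 2.0.4 and the build GRCm38.p4. The counting program, annotation and filters are not given in the sources used here. The deposited FPKM followed from the count, the library total and 1 length per gene, to within 0.00441% over 11586 genes. Groups came from the submitters' treatment labels. Nothing says that replicates came from separate cultures, so p-values measure the spread between these samples, which may be technical. No libraries agreed within counting noise.

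TMM factors, the default count filter (filterByExpr) and the quasi-likelihood test of edgeR 4.0.16 (R 4.3.3) were run on the counts of all 34745 genes, with Benjamini-Hochberg adjustment over the 12941 genes kept. A gene passed when it changed at least 2-fold with an adjusted p under 0.05. Means are given with the SD of 3 libraries, and CPM are TMM-normalized. Isozyme shares were compared with an exact permutation test (scipy 1.17.1, Python 3.11.15). Stretches of 50 bases were compared between GENCODE M21 transcripts, and promoter sequences are RefSeq's (33 of 35 genes matched by symbol). With 3 counts as the floor, a library can show 0.171 to 0.2 CPM, which covers counting error only. The code was tested on simulated counts. The genes and lists were chosen with earlier results of these data known. The text names the members past the threshold, the 6 with the smallest p, the 5 most abundant and tissue-specific forms, and in other lists the genes that passed or the 2 with the smallest p. Pdk4, Slc2a5, Hif1a and the neighbours of Eno3 were named after their values were seen. The alternatives replaced the test (edgeR's exact test, DESeq2 1.42.0, voom and limma 3.58.1), the scaling (median-ratio size factors or library totals), the count filter (none, or a mean of 10 counts) and the threshold (an unadjusted p, or any fold). Others added the replicate number as a block, left out each library or Nr4a1, ran limma on log2 FPKM with a pseudocount of 1 or 0.1, or took shares from CPM per length. Summing Eno1 and Eno1b counts and using merged exon lengths were chosen after seeing the data.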

Additional observations from a re-analysis of the deposited data

How the results depend on the processing

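Eno3 had a log2 fold change of 1.51 to 1.71 under every alternative run, and it passed in all of them except 3 that left out a library, where the adjusted p was 0.0511 (without NR4A1 overexpression replicate 1, log2 fold change 1.64), 0.110 (without replicate 3, 1.61) and 0.0845 (without vector control replicate 3, 1.59). The number of genes that rose was therefore 0 to 1 with each library left out, and 1 under the other alternatives. The number that fell was 0 under all. The median log2 fold change was -0.14 to -0.03. The share of Eno3 among the enolases kept its direction, at 26.51 to 29.24 percentage points, as did the share of Hk2 at 7.33 to 8.98. Of the 486 values of the other 26 genes, 465 kept their sign and 21, from 8 genes, did not. All 21 were within 0.20 of 0. With each library left out in turn, these genes ranged over 0: Slc2a4 -0.10 to 0.75, Hk1 -0.02 to 0.15, Pfkm -0.03 to 0.03, Pfkfb4 -0.62 to 0.20, Gapdh -0.24 to 0.11, Pgk1 -0.02 to 0.10, Eno1 -0.30 to 0.04 and Slc16a1 -0.08 to 0.02. Pfkm was also at -0.01 with library totals and with limma on FPKM. The cause was not tested. With the replicate number as a block, Eno3 had a log2 fold change of 1.60 and an adjusted p of 0.00746, and no other call changed. Same-numbered libraries correlated at -0.011, -0.046 and 0.246, so the numbers were not taken to pair them. The 2-fold rule leaves out smaller changes such as that of Hk2 whatever their p, and genes at a few counts gave no test.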
